A study of Rattus norvegicus with 84 samples.

Results

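The comparison described here set cocaine (Coc) against saline (Sal) in the shell of the nucleus accumbens after extinction, the condition labelled Ext. Its members were the libraries whose titles give Shell with Ext_Coc or Ext_Sal, which makes 14 of the 84 libraries of the series, 7 in each group. All came from wild-type Long-Evans rats, and of the labels given, only Coc or Sal differed between the groups. Sequencing depth differed between them too, as described below. Doses, withdrawal times, sex and age were not given in the sources used here, nor whether every library stands for its own animal; p-values then reflect only how far these samples spread, which may be technical. The whole series holds 12 groups of 7 libraries from core and shell, in the conditions Ext, HC and Ctx, and was designed to set cocaine withdrawal beside extinction. Each library is called by the number in its title, in which the leading 3 or 4 or, where there is one, the letter F names a series; Ext_Coc and Ext_Sal each had 2 libraries of series 3, 3 of series 4 and 2 of series F.

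The shell is the part of the ventral striatum that receives dopamine from the midbrain and glutamate from cortex, hippocampus and amygdala, and it takes part in reward seeking and in its suppression by extinction. Most of its neurons are GABAergic projection neurons of the D1 type, which carry dopamine receptor Drd1 with dynorphin (Pdyn) and substance P (Tac1), or of the D2 type, which carry Drd2 with enkephalin (Penk) and the adenosine receptor Adora2a. Immediate early genes such as Fos, Egr1 and Arc are transcribed within minutes of synaptic activity through CREB and the serum response factor, and are widely read as a record of recent neuronal activity.

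Counts per library ran from 17.0 M to 20.7 M (M, a count of 1e6) in Ext_Coc and from 13.9 M to 16.8 M in Ext_Sal. These ranges did not overlap (18.0 ± 1.31 M against 15.7 ± 0.985 M, SD, n = 7 each; two-sided exact permutation p = 0.0006). The part of the depth in the results below was not tested. The fit scales each library to its total times a TMM factor, from 0.84 in 2-F to 1.41 in 12-F among the 14 libraries. Olfactory and vomeronasal receptor genes, 1382 genes that shell cells are not known to use, served as a measure of background counts. Their density per base, applied to all gene lengths, gave Ext_Coc a background share of 25.5% ± 8.88, against 29.2% ± 12.3 for Ext_Sal (SD, n = 7 each; two-sided exact permutation p = 0.554), with Ext_Sal library 12-F at 53.9%. The first principal component of the 14 libraries held 62.1% of the variance and followed the log2 background level (Pearson r = 0.997, n = 14, a description, since both come from the same counts). Some libraries stood apart for markers of other tissue. Ext_Coc library 3-2 held 241 CPM of Slc17a7, the vesicular glutamate transporter of cortical neurons, against 3.88 to 6.10 CPM in the other 6 Ext_Coc libraries and 3.75 to 7.85 CPM in Ext_Sal. Ext_Sal libraries 3-6 and 12-F held 61.9 and 33.3 CPM of Col3a1, a fibrillar collagen of fibroblasts, against 4.37 to 9.69 CPM in Ext_Coc and 5.29 to 6.70 CPM in the other 5 Ext_Sal libraries. Markers of projection neurons were present in all 14 libraries, with Drd1 at 38.8 to 104 CPM in Ext_Coc and 38.5 to 83.3 CPM in Ext_Sal. Whether these levels separate shell from core was not tested. Blood markers were highest in Ext_Sal libraries 4-5 and 3-6, whose median deviations from the mean of the 42 Shell libraries were 0.89 each on the log2 scale, against -0.69 to -0.11 in Ext_Coc and -0.61 to 0.13 in the other 5 Ext_Sal libraries. Values without 3-2, 3-6 and 12-F, together or in part, stand beside many of the lists they move.

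**Figure D1:**
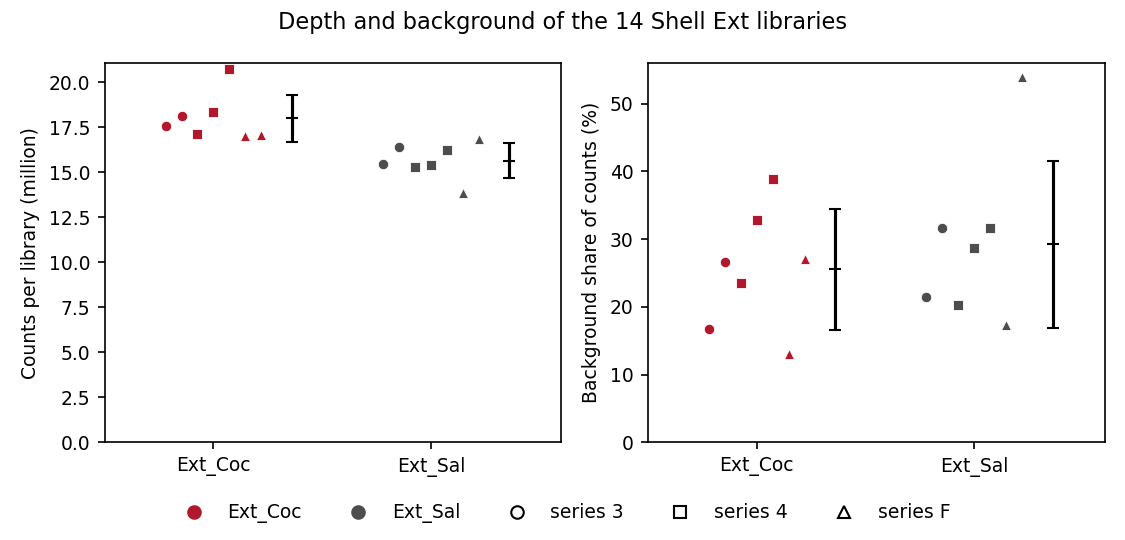
Counts per library in M (left) and the background share of counts in percent (right) for each Shell Ext library, Ext_Coc beside Ext_Sal, with the mean and SD of 7 libraries as bars and the series as the symbol. Depth did not overlap between the groups, while background shares did, with Ext_Sal library 12-F highest at 53.9%.

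No gene passed an adjusted p of 0.05 between Ext_Coc and Ext_Sal in Shell: 0 of 30911 genes tested, or 0.0%, with 0.998 as the lowest adjusted p (edgeR's quasi-likelihood F test, Benjamini-Hochberg adjustment). DESeq2 also called 0 genes. An unadjusted p under 0.05 was reached by 486 genes (1.57%), of which 241 (0.78%) had the higher estimate in Ext_Coc and 245 (0.793%) the lower; p-values spread evenly between 0 and 1 would give 1545.6. With the background level as a covariate the counts were 1101 higher (3.56%) and 405 lower (1.31%), and again 0 passed the adjusted threshold. The median log2 fold change over all genes was -0.01, and 46.8% of genes had the higher estimate in Ext_Coc. The 95% interval of the fold change lay within 2-fold in both directions for 96.5% of genes, and within 1.5-fold for 64.7% (85.3% with the background covariate). Larger differences than these were outside the intervals of those genes. The smallest difference that could have passed was not tested, and the SE differed between genes. Every difference given from here on is therefore an estimate that did not pass, and "higher" or "lower" means the sign of that estimate in Ext_Coc relative to Ext_Sal; each gene named below had an adjusted p of 0.998.

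Among the 36 gene lists described, which were chosen with earlier results of these data known, the immediate early transcription factor list had the highest median. Of its 20 members, all of them measured, 19 had higher estimates in Ext_Coc and 1, Atf3, a lower one (-0.04 on the log2 scale). The median log2 fold change was 0.38, against -0.01 over all genes, and 10 of the 20 were among those at an unadjusted p under 0.05 with the higher estimate, a share to set beside 0.78% of all genes; 0 were among those with the lower estimate. The promoters of 3 members are printed here because their genes lie among the members with the lowest p and because CREB and serum response factor sites are the textbook inputs of this list. Each runs from 250 bases before to 50 after the annotated start, 5′ to 3′ on the gene's strand, from RefSeq on build GRCr8, which is not the build of the counts. Capitals mark TGACG or its reverse complement CGTCA, the core of the cAMP response element to which CREB binds, and the CArG box, the serum response element.
Egr2, chr20:21054392-21054691, minus strand: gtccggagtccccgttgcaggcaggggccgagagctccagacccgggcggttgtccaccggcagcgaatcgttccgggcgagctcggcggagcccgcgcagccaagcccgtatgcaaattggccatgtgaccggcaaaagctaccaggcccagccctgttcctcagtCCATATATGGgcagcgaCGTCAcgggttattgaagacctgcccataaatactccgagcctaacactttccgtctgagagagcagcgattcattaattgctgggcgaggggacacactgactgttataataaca
Nr4a1, chr7:134259888-134260187, plus strand: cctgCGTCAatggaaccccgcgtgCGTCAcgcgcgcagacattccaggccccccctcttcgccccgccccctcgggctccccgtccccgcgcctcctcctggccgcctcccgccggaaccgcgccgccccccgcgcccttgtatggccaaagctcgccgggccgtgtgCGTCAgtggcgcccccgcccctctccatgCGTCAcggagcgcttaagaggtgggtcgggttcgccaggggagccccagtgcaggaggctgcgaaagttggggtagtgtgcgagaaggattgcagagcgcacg
Junb, chr19:40080876-40081175, plus strand: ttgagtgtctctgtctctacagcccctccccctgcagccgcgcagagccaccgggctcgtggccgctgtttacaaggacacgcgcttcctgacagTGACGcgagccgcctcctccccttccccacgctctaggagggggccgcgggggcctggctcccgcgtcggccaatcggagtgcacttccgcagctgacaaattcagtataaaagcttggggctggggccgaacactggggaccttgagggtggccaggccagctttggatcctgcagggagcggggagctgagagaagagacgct
The Egr2 window holds 1 CArG box and 1 core, which do not overlap, the Nr4a1 window 4 cores and the Junb window 1 core. Over both strands the core was present in 10 of the 14 list members with a promoter in the table and in 21.2% of all 33469 promoters of the same length. Here and below, a list member counted if any of its promoters matched, while the share of all is per promoter. The full element TGACGTCA, which contains the core on each strand, was present in 3 of the 14 (Ier2, Jund and Maff) and in 1.83% of all promoters, and the CArG box in 2 of the 14 (Egr1 and Egr2) and in 1.64%. A match is a description of the letters and not a site.

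Egr2, a zinc finger transcription factor of the Egr family, had 3.32, 4.57 and 6.71 CPM as lowest, median and highest level in Ext_Coc, against 2.18, 3.20 and 3.596 CPM in Ext_Sal. All 7 Ext_Coc libraries were above the Ext_Sal mean and 5 were above the highest Ext_Sal library, though the groups overlapped. Its log2 fold change was 0.56 ± 0.18 (SE; 95% interval 0.19 to 0.93), or 1.47-fold. Junb, a partner of the Fos proteins in AP-1, had 10.3, 21.0 and 37.2 CPM in Ext_Coc, against 6.67, 15.5 and 19.1 CPM in Ext_Sal. The highest 5 Ext_Coc libraries were above every Ext_Sal library, and library 4-1 of Ext_Coc was below the Ext_Sal mean. The log2 fold change of Junb was 0.65 ± 0.24 (SE). Nr4a1, an orphan nuclear receptor, had 16.0, 28.1 and 43.1 CPM in Ext_Coc, against 15.5, 21.8 and 27.6 CPM in Ext_Sal (0.50 ± 0.18 on the log2 scale, SE). The groups overlapped at the low end, where 4-1 of Ext_Coc lay beside 12-F of Ext_Sal, the libraries with the highest background share of their groups.

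Egr1, another Egr factor, had 16.8, 32.5 and 68.05 CPM in Ext_Coc, against 15.3, 20.9 and 35.8 CPM in Ext_Sal, a log2 fold change of 0.59 ± 0.24 (SE). Egr4 had 3.605, 7.27 and 16.9 CPM in Ext_Coc, against 1.74, 4.89 and 6.82 CPM in Ext_Sal (0.72 ± 0.27). In both genes 4-1 was the lowest and 3-2 the highest library of Ext_Coc. Fos, the AP-1 subunit most used as an activity marker, had 4.67, 8.82 and 15.4 CPM in Ext_Coc, against 5.08, 6.23 and 7.25 CPM in Ext_Sal (0.50 ± 0.21). The spread of Fos was wider in Ext_Coc, whose 2 ends lay outside the Ext_Sal range on either side. Fosb, whose truncated product ΔFosB builds up under repeated cocaine, had 4.67, 7.04 and 9.91 CPM in Ext_Coc, against 3.86, 4.77 and 6.58 CPM in Ext_Sal (0.39 ± 0.17); the counts are per gene and do not separate the 2 products. Npas4, a neuron-specific factor induced by calcium entry, had 12.9, 16.9 and 19.9 CPM in Ext_Coc, against 9.52, 13.3 and 17.2 CPM in Ext_Sal (0.40 ± 0.18), with all 7 Ext_Coc libraries above the Ext_Sal mean. Nr4a3 and Egr3, of the same families, had log2 fold changes of 0.50 ± 0.20 and 0.46 ± 0.22 (SE).

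**Figure D2:**
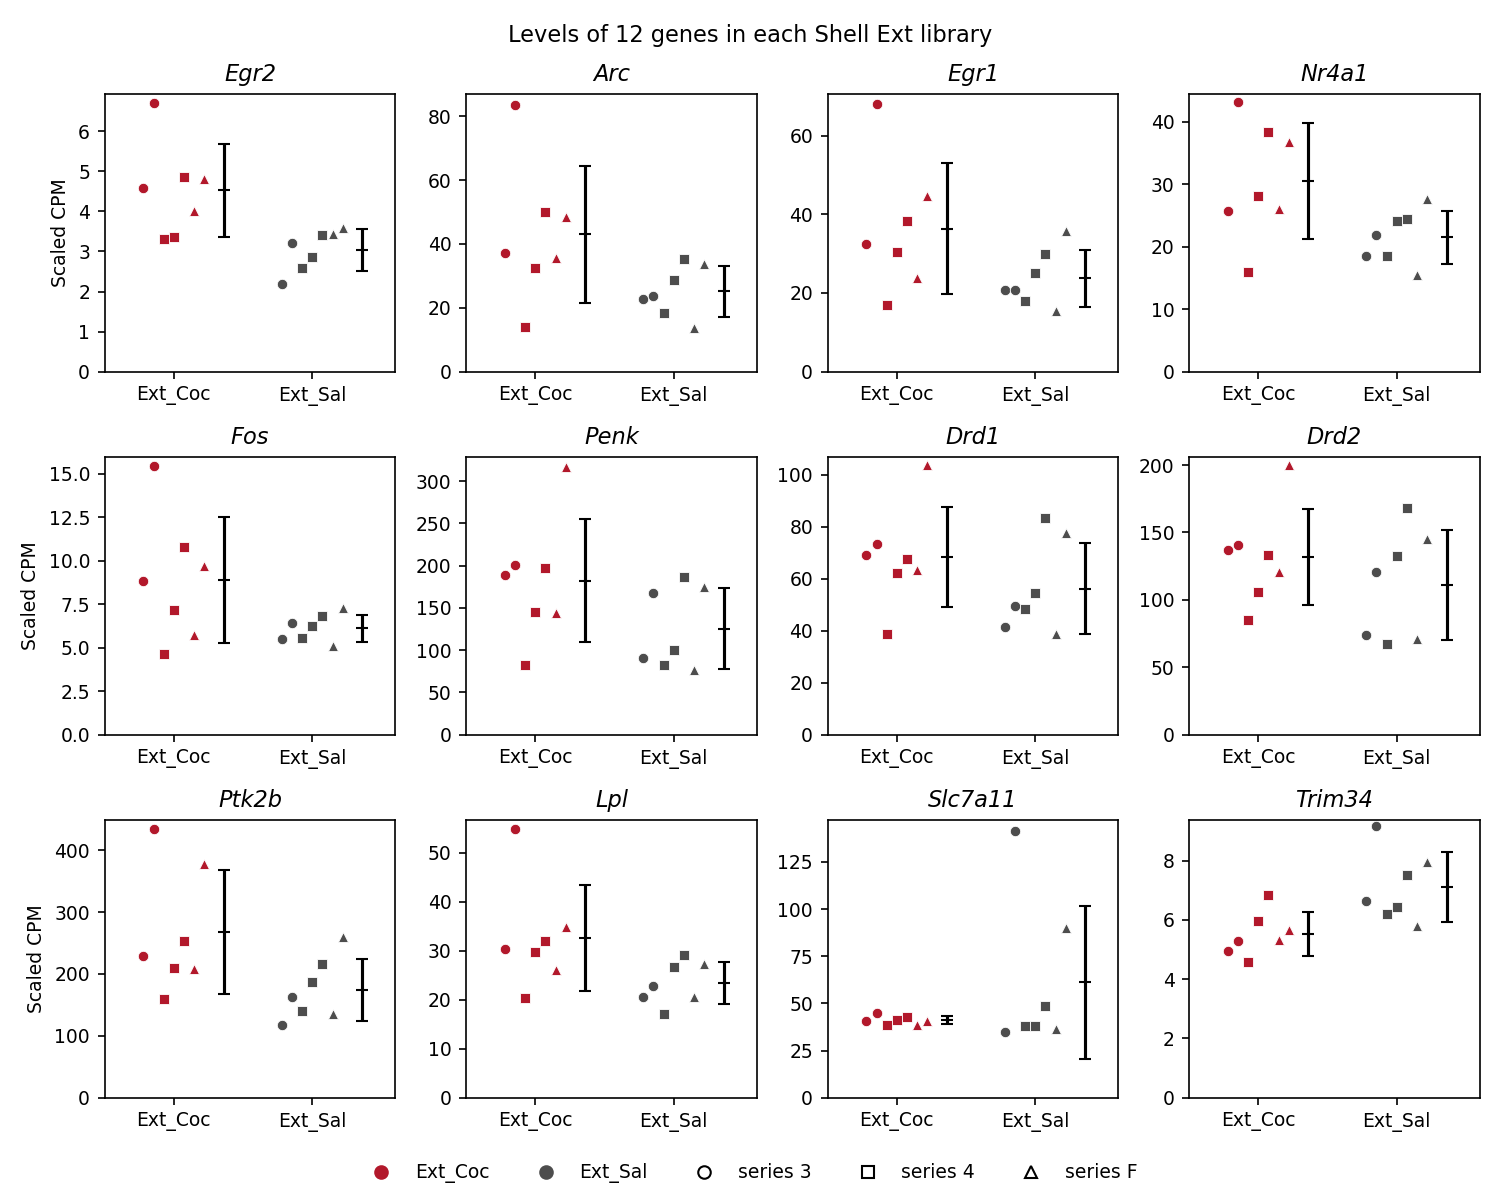
Levels of 12 genes in CPM scaled by TMM, in each Ext_Coc and Ext_Sal library of Shell, with the mean and SD of 7 libraries as bars and the series as the symbol. For Egr2, Arc, Egr1, Nr4a1 and Fos the highest library is 3-2 of Ext_Coc, and for Slc7a11 it is 3-6 of Ext_Sal.

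The activity-induced effectors, the synaptic and signalling genes that follow the transcription factors, had higher estimates in 25 of 28 members and lower ones in 3, with a median log2 fold change of 0.22; 5 were at an unadjusted p under 0.05 with the higher estimate, against 0.78% of all genes, and 0 of 28 were without 3-2 or without 3-6 and 12-F. Arc, which drives the removal of AMPA receptors from synapses, had 14.1, 37.2 and 83.6 CPM in Ext_Coc, against 13.7, 23.6 and 35.3 CPM in Ext_Sal. The highest 5 Ext_Coc libraries were above all of Ext_Sal, and 4-1 was near the lowest of both groups. The log2 fold change of Arc was 0.72 ± 0.27 (SE; 95% interval 0.17 to 1.26), or 1.65-fold. Plk2, a kinase that acts in synaptic scaling, and Homer1, a scaffold of metabotropic glutamate receptors, had estimates of 0.40 ± 0.21 and 0.29 ± 0.19. Bdnf, the neurotrophin induced by activity, had 6.34, 11.0 and 13.4 CPM in Ext_Coc, against 6.96, 8.76 and 14.8 CPM in Ext_Sal, and its estimate was near 0 (0.07 ± 0.25; 0.25 ± 0.13 with the background covariate).

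Ext_Coc library 3-2, which carried the cortical markers, was also the library with the highest immediate early genes. The median deviation of the list from its mean over the 42 Shell libraries was 0.73 in 3-2 and ran from -0.50 to 0.20 in the other 6 Ext_Coc libraries, against -0.56 to -0.08 in Ext_Sal. Outside the Ext groups, the highest HC_Coc library was at 0.98. Without 3-2 the median log2 fold change of the list was 0.25, with 17 of 20 members higher. Of the 20, 3 rather than 10 were at an unadjusted p under 0.05, beside 89 of 30911 genes with the higher estimate. The estimate of Egr1 was then 0.39 in place of 0.59 and that of Arc 0.53 in place of 0.72, while Egr2 was at 0.45 and Junb at 0.54. Without 3-2, 3-6 and 12-F, 18 of the 20 members had higher estimates, with a median of 0.19. Only 1 was at an unadjusted p under 0.05, beside 168 of 30910 genes with the higher estimate. With the background covariate and all libraries the median was 0.35 and 10 of 20 reached that level, against 3.56% of all genes on that side. Within the series 3, 4 and F the list had medians of 0.76, 0.22 and 0.29, with 16, 18 and 17 of 20 members higher. At an unadjusted p under 0.05 with the higher estimate were 13, 0 and 0 members. Over all genes these were 1376 of 30479, 510 of 30821 and 17 of 30711. The effectors did not keep their sign: their medians within series 3, 4 and F were 0.42, -0.05 (10 of 28 higher) and 0.35, and the median was 0.03 without 3-2, 3-6 and 12-F. The part of cortical tissue in the level of library 3-2 was not tested, and cortical neurons also express Arc, Egr1 and Fos.

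**Figure D3:**
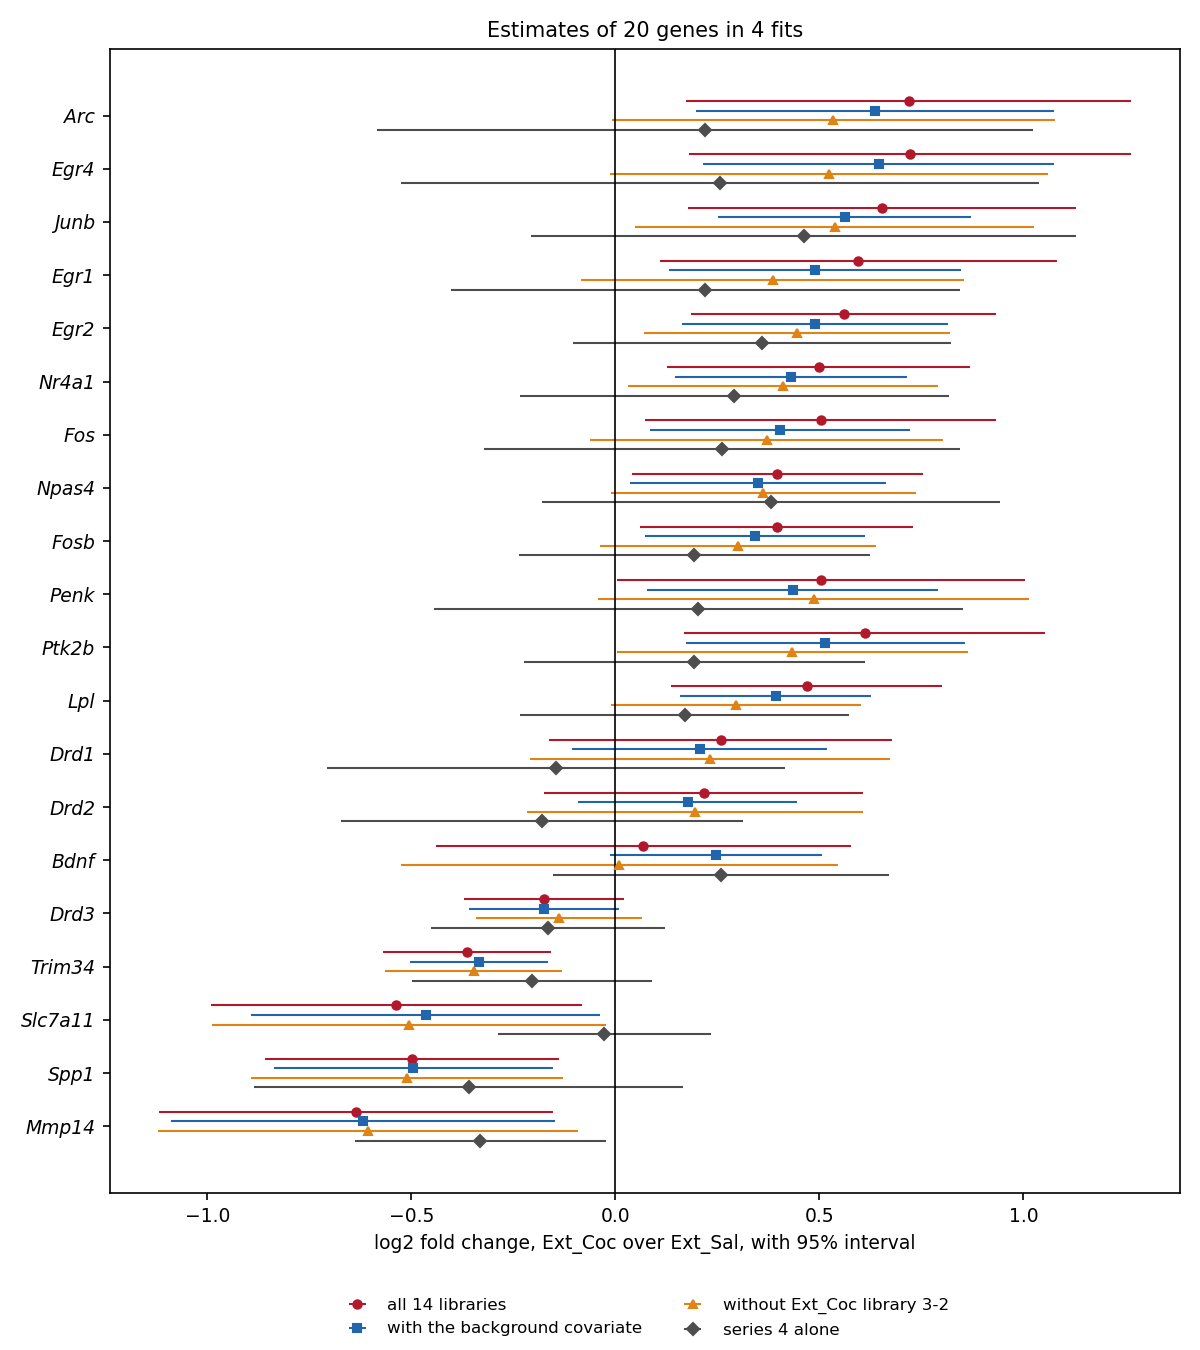
Log2 fold changes of 20 genes, Ext_Coc over Ext_Sal in Shell, with 95% intervals, from all 14 libraries, with the background covariate, without Ext_Coc library 3-2 and in series 4 alone. Of the genes drawn, Arc, Egr4, Junb, Egr1, Egr2, Nr4a1, Fos, Npas4 and Fosb have estimates above 0 in all 4 fits. In series 4 alone, 0 of the 20 immediate early factors and 0 of the 28 effectors were at an unadjusted p under 0.05. The intervals of Arc (0.22) and Egr1 (0.22), for example, include 0 there.

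The same list was set beside the other Shell groups. As mean and SD over 7 libraries, its deviation in Ext_Coc was 0.02 ± 0.39, against -0.33 ± 0.17 in Ext_Sal; it was 0.36 ± 0.36 in HC_Coc and 0.19 ± 0.17 in HC_Sal, and -0.12 ± 0.29 in Ctx_Coc and -0.02 ± 0.23 in Ctx_Sal. Ext_Sal had the lowest mean of the 6 groups, and Ext_Coc lay between the HC groups above it and the Ctx groups below it, within the spread of each. The cocaine against saline estimates of the list had a median of 0.20 in HC, with 17 of 20 higher, and of -0.16 in Ctx, with 4 of 20 higher. For Arc, the difference of the drug effects was 0.55 ± 0.38 for Ext minus HC (adjusted p = 1.000) and 1.01 ± 0.38 for Ext minus Ctx (adjusted p = 0.665); for Egr2 they were 0.28 ± 0.26 and 0.72 ± 0.26 on the log2 scale, with the same adjusted p-values. Over all genes 0 passed in either difference, with 241 at an unadjusted p under 0.05 for Ext minus HC and 1528 for Ext minus Ctx. In the core, Ext_Coc against Ext_Sal gave the list a median of 0.28, with 16 of 20 higher, and Egr2 an estimate of 0.51 ± 0.22. The difference of shell minus core was 0.06 ± 0.31 for Egr2 and 0.21 ± 0.51 for Arc, with an adjusted p of 1.000 each and 0 genes called.

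**Figure D4:**
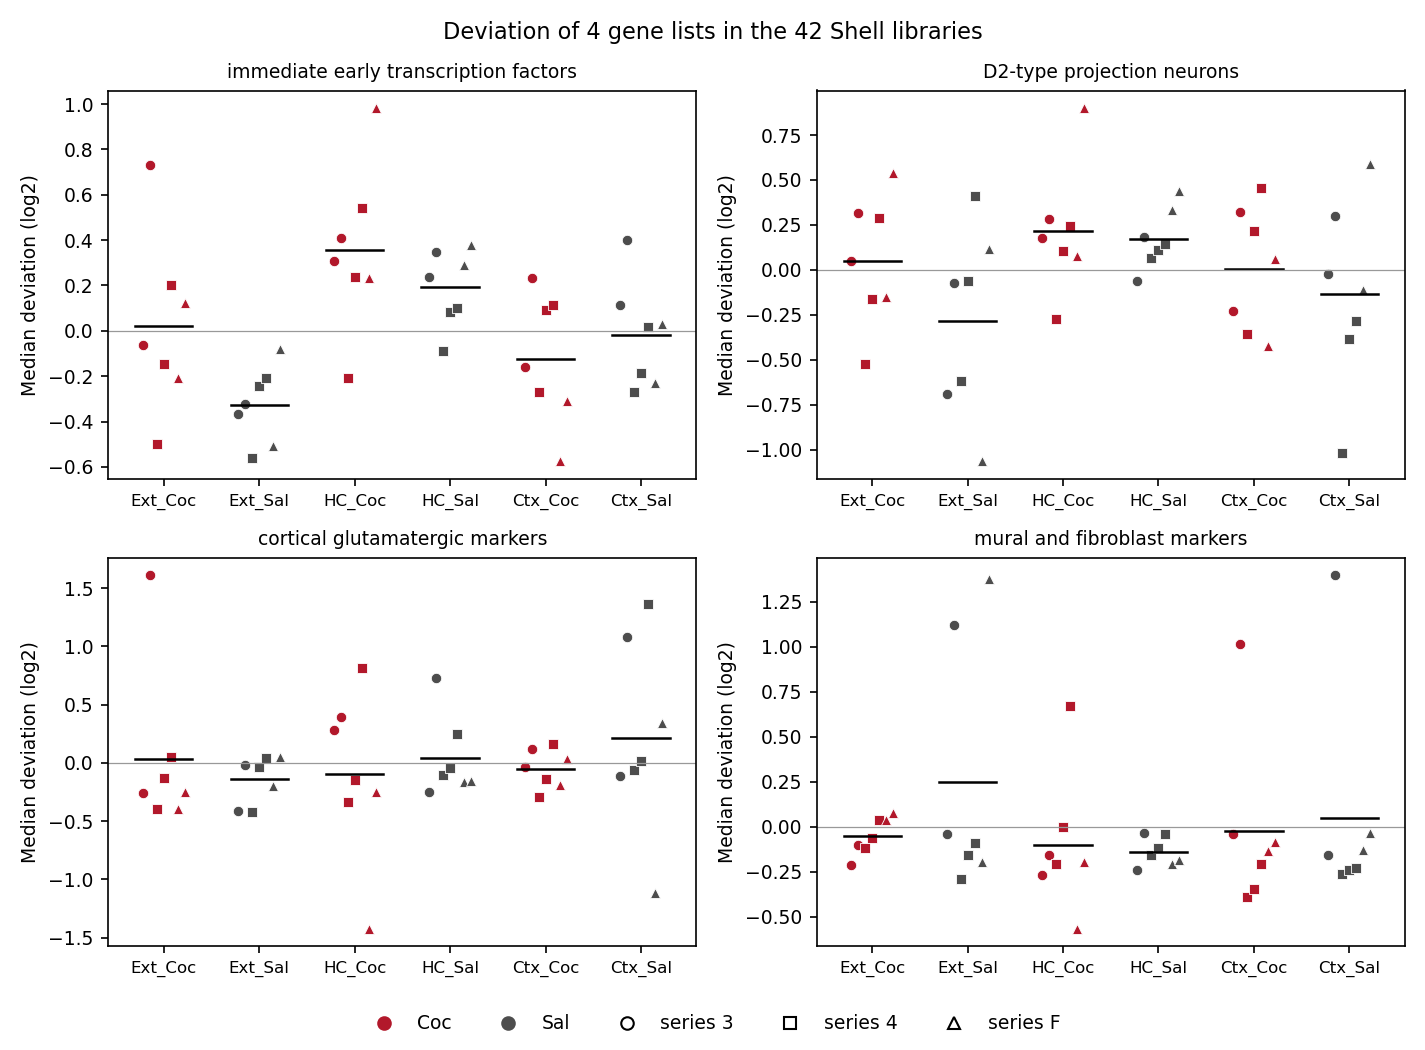
Median deviation (log2) of 4 gene lists from their mean over the 42 Shell libraries, 1 point per library, with the group mean as a line and the series as the symbol. Ext_Sal is lowest for the immediate early transcription factors (mean -0.33, against 0.02 in Ext_Coc). Single libraries stand out for cortical markers (1.61 in Ext_Coc) and for mural and fibroblast markers (1.37 and 1.12 in Ext_Sal). Libraries of other Shell groups stand out as well. Cortical markers reach 1.36 in Ctx_Sal and -1.42 in HC_Coc, and mural and fibroblast markers reach 1.40 in Ctx_Sal and 1.02 in Ctx_Coc.

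Markers of the projection neurons leaned towards Ext_Coc, more in the D2 type than in the D1 type; that difference between the lists was not tested. All 7 D2-type members had higher estimates, with a median log2 fold change of 0.31 and 2 of 7 (Penk and Gpr52) at an unadjusted p under 0.05, against 0.78% of all genes with the higher estimate. Without 3-2 alone, or without 12-F alone, 0 of 7 reached that level. Penk, the enkephalin precursor, had 82.7, 189 and 317 CPM in Ext_Coc, against 76.8, 99.8 and 186 CPM in Ext_Sal. In Ext_Coc 4 libraries exceeded the highest Ext_Sal library, and in Ext_Sal 3 libraries (3-5, 4-4 and 4-F) lay between 168 and 186 CPM and the other 4 between 76.8 and 99.8 CPM. Its log2 fold change was 0.50 ± 0.25 (SE; 95% interval 0.00 to 1.00), or 1.42-fold. Gpr52 and Gpr6, orphan receptors of striatopallidal neurons, had estimates of 0.37 ± 0.18 and 0.49 ± 0.25, and Adora2a one of 0.31 ± 0.19. Drd2 itself had 85.3, 134 and 199.7 CPM in Ext_Coc, against 67.0, 121 and 169 CPM in Ext_Sal (0.22 ± 0.19), with wide overlap. In bulk tissue, fewer cells of a type and less RNA per cell cannot be told apart.

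Of the 8 D1-type members 6 had higher and 2 lower estimates, with a median of 0.17 and 0 at an unadjusted p under 0.05. Pdyn, the dynorphin precursor, had 39.5, 58.9 and 81.3 CPM in Ext_Coc, against 31.8, 46.3 and 69.9 CPM in Ext_Sal (0.34 ± 0.19). Tac1 had 9.33, 13.5 and 19.7 CPM in Ext_Coc, against 8.06, 9.05 and 18.7 CPM in Ext_Sal (0.31 ± 0.23). Drd1 had 38.8, 67.6 and 104 CPM in Ext_Coc, against 38.5, 49.6 and 83.3 CPM in Ext_Sal (0.26 ± 0.21). For these 3 genes the groups overlapped over most of their ranges, and the lowest library was 4-1 in Ext_Coc and 12-F or 4-5 in Ext_Sal. The lists of projection neurons shared series 4 as their exception: the median was 0.54, 0.01 and 0.57 in series 3, 4 and F for the D2 type, and 0.40, -0.13 and 0.51 for the D1 type. Without 3-2, 3-6 and 12-F, the D2 median was 0.08 and the D1 median 0.04, and over single left-out libraries the D1 median ran from 0.09 without 12-F to 0.30 without 4-4. Interneuron markers were split evenly, 7 higher and 7 lower, with a median at 0 to 2 decimals.

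Drd3, the dopamine receptor enriched in the shell, had 22.7, 27.3 and 34.9 CPM in Ext_Coc, against 29.7, 31.3 and 34.3 CPM in Ext_Sal. In all, 6 of 7 Ext_Coc libraries were below the Ext_Sal mean, but 4-3 of Ext_Coc was the highest library of all. Its log2 fold change was -0.18 ± 0.10 (SE), opposite in sign to Drd1 and Drd2, and it was negative in each series (-0.29, -0.17 and -0.09 in series 3, 4 and F). The 20 dopamine receptor and cAMP signalling genes had a median of 0.06, with 12 higher, 8 lower and 0 at an unadjusted p under 0.05. Without 3-2, 3-6 and 12-F that median was -0.07, with 6 of 20 higher.

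Among peptide and receptor genes of the reward system, Cartpt, the precursor of the cocaine- and amphetamine-regulated transcript peptide, had 25.7, 39.9 and 55.5 CPM in Ext_Coc, against 16.3, 28.5 and 43.4 CPM in Ext_Sal (0.46 ± 0.23, SE). The groups overlapped, with 3 Ext_Coc libraries above the Ext_Sal range. Oprm1, the mu opioid receptor, had 67.8, 69.6 and 74.0 CPM in Ext_Coc, against 59.9, 67.6 and 73.4 CPM in Ext_Sal. Its estimate of 0.06 ± 0.07 had a 95% interval of -0.08 to 0.19, among the narrowest of the genes named here. Oprk1, the kappa receptor for dynorphin, had an estimate of 0.04 ± 0.13, and Pnoc, the nociceptin precursor, one of -0.25 ± 0.15. Cnr1, the cannabinoid receptor, had 20.1, 24.2 and 94.97 CPM in Ext_Coc, against 18.6, 22.9 and 30.4 CPM in Ext_Sal; the highest value was library 3-2, and the estimate of 0.41 ± 0.26 was 0.00 without it. Cck, a peptide of cortical and other neurons, likewise held 63.8 CPM in 3-2 and 2.56 to 3.36 CPM in the other 13 libraries, and its estimate was 1.46 ± 0.71 with 3-2 and 0.15 without it.

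The glutamate genes that preclinical work ties to cocaine seeking after withdrawal gave estimates near 0. Gria1, the AMPA subunit of synapses that strengthen in the accumbens after cocaine, had 419, 652 and 954 CPM in Ext_Coc, against 388, 627 and 794 CPM in Ext_Sal (0.12 ± 0.16, SE; 95% interval -0.21 to 0.45). Gria2, which makes AMPA receptors impermeable to calcium, and Grm5, a group I metabotropic receptor, had estimates of 0.18 ± 0.15 and 0.12 ± 0.16. The ranges of all 3 genes overlapped widely. Their lists had medians of 0.07 (AMPA, 10 of 14 higher), 0.05 (NMDA and kainate, 7 of 12) and 0.05 (metabotropic receptors and scaffolds, 8 of 13), with 0 members of the 3 lists at an unadjusted p under 0.05. Over single left-out libraries these medians ran from -0.03 to 0.15. Without 3-2, 3-6 and 12-F they were -0.05 (5 of 14 higher), -0.10 (0 of 12) and -0.08 (3 of 13). Slc1a2, the astrocytic glutamate transporter GLT-1, had 281, 397 and 553 CPM in Ext_Coc, against 245, 412 and 510 CPM in Ext_Sal (0.08 ± 0.15). Camk2a, a calcium-dependent kinase of dendritic spines, had an estimate of 0.33 ± 0.19, and all 15 CaM kinase, MEF2 and other cocaine-linked regulators had higher estimates, with a median of 0.20. That median was 0.11 without 3-2, 0.12 without 12-F and 0.31 without 4-4. Without 3-2, 3-6 and 12-F, 6 of the 15 were higher, with a median of -0.01, and in series 4 alone 1 of 15 was, with a median of -0.07.

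Slc7a11, the cystine-glutamate exchanger xCT that supplies extrasynaptic glutamate, had a median of 40.8 CPM in Ext_Coc and 38.0 CPM in Ext_Sal, yet a log2 fold change of -0.54 ± 0.22 (SE). The 7 Ext_Coc libraries lay between 38.7 and 44.6 CPM; of Ext_Sal, 5 libraries lay between 35.0 and 48.8 CPM and the other two, 12-F and 3-6, at 90.2 and 141 CPM. Without these 2 libraries the estimate was 0.06. They are the libraries with high collagen: Col3a1 had an estimate of -1.22 ± 0.54 with them and 0.12 without them, and Col1a2, another fibrillar collagen, -1.18 ± 0.56 and 0.10.

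**Figure D5:**
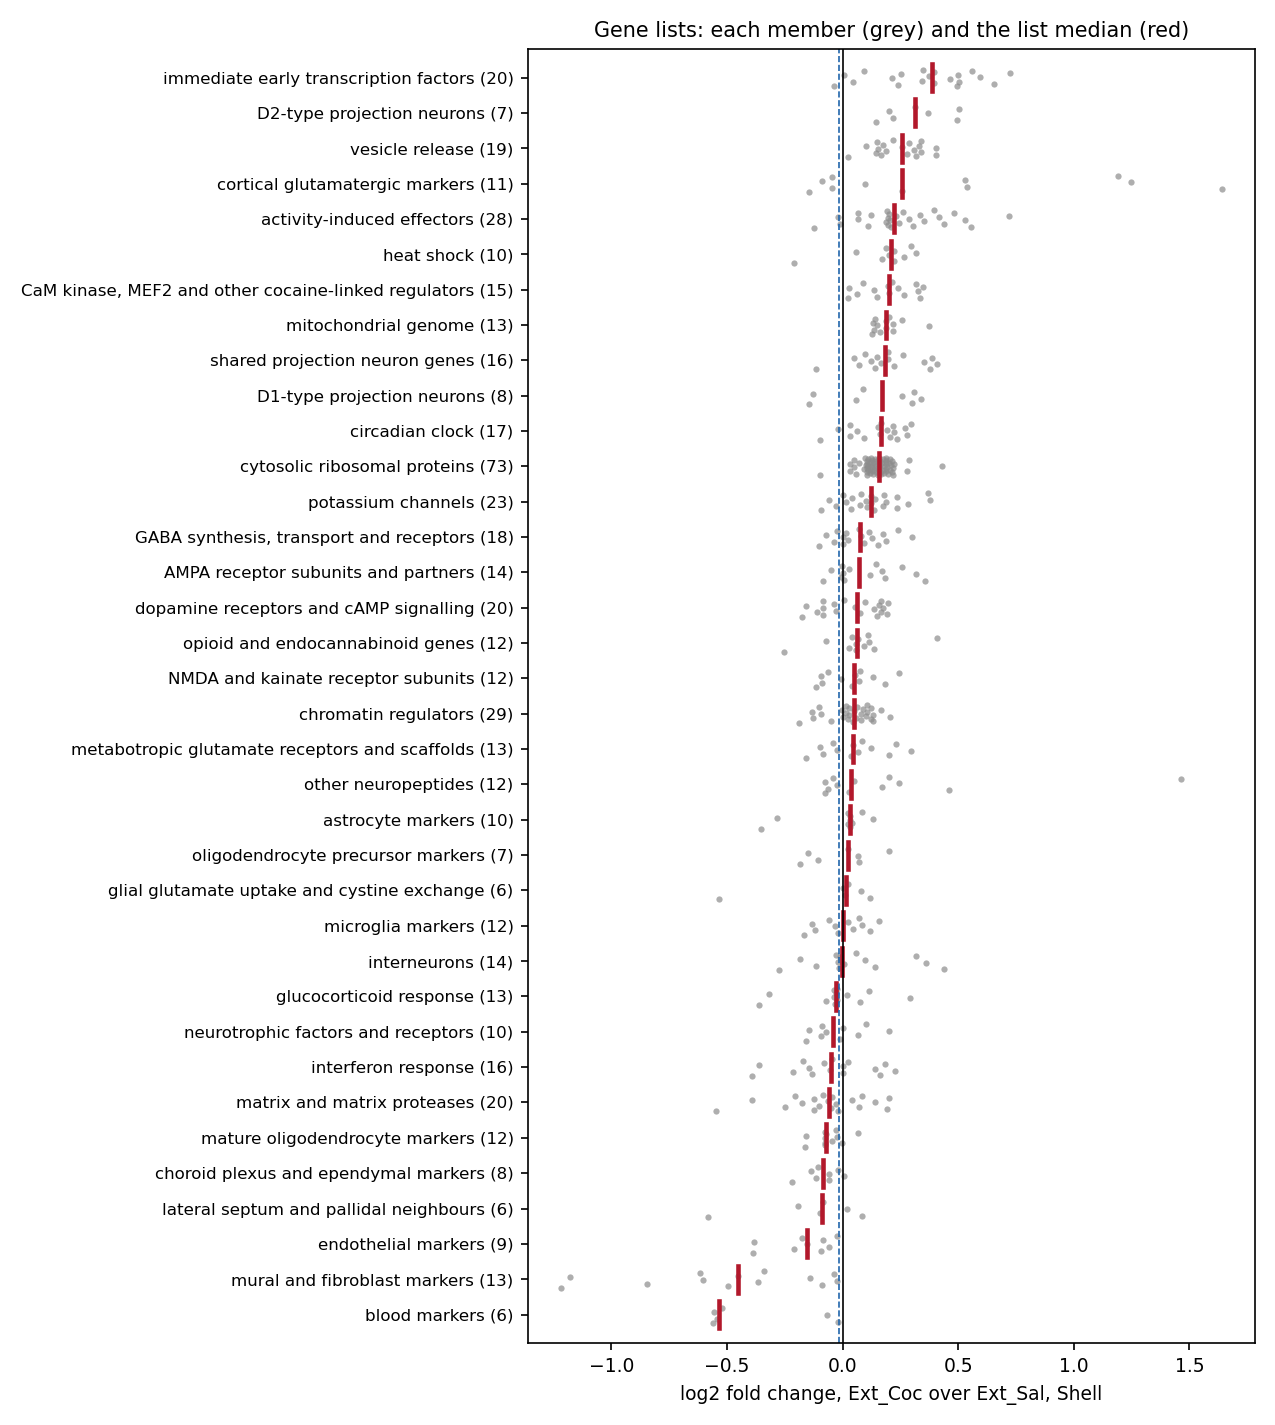
Log2 fold change of each member of the 36 gene lists (grey points) and the list median (red bar), Ext_Coc over Ext_Sal in Shell, ordered by median, with the number of members tested in brackets; the solid line marks 0 and the dashed line the median of all genes, -0.01. The immediate early transcription factors have the highest median (0.38), and the blood markers the lowest (-0.53).

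Vessel and blood markers made up the low end of the lists. All 13 mural and fibroblast markers had lower estimates in Ext_Coc, with a median of -0.45 and 2 at an unadjusted p under 0.05 (Col3a1 and Col1a2), against 0.793% of all genes on that side. Their summed level ran from 176 to 202 CPM in Ext_Coc, with a median of 187, and from 159 to 571 CPM in Ext_Sal, with a median of 186; no marker was at 0. Without 12-F the median was -0.08, and without 3-6 and 12-F, 10 of the 13 were higher and it was 0.10. The 9 endothelial markers all had lower estimates, with a median of -0.15; it was -0.07 without 3-2, -0.05 without 3-6 and -0.01 without 3-6 and 12-F. The 6 blood markers had lower estimates too, with a median of -0.53 and 1 at an unadjusted p under 0.05. Over single left-out libraries that median ran from -0.65 without 12-F to -0.30 without 4-5. It was -0.50 without 3-2, 3-6 and 12-F. In series 3, 4 and F alone it was -0.74, -0.87 and 0.43, and in series F 5 of the 6 were higher. The summed level of the blood markers ran from 23.7 to 37.4 CPM in Ext_Coc and from 24.0 to 59.9 CPM in Ext_Sal. Hbb-b1, a beta-globin, had 1.37, 1.74 and 2.50 CPM in Ext_Coc, against 1.59, 2.29 and 4.09 CPM in Ext_Sal (-0.56 ± 0.20); globin copies are near-identical, so their values are uncertain.

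The 11 cortical glutamatergic markers had a median of 0.25 with library 3-2 and -0.08 without it, when 3 of 11 were higher. Their summed level ran from 214 to 618 CPM in Ext_Coc, with a median of 239.8, and from 225 to 260.1 CPM in Ext_Sal, with a median of 246; no marker was at 0. Neurod6, a cortical neuron factor, held 14.1 CPM in 3-2, against 0.653 to 1.44 CPM in the other Ext_Coc libraries and 0.488 to 1.95 CPM in Ext_Sal.

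Further lists in which nearly all members leaned to Ext_Coc were vesicle release (19 of 19, median 0.26), the mitochondrial genome (13 of 13, 0.19), cytosolic ribosomal proteins (72 of 73, 0.16), shared projection neuron genes (15 of 16, 0.18), circadian clock genes (15 of 17, 0.17), heat shock genes (9 of 10, 0.21) and potassium channels (20 of 23, 0.12). In series 4 alone the medians of these 7 lists ran from -0.24 to -0.06. Without 3-2, 3-6 and 12-F all 7 medians were below 0: -0.06 for vesicle release (2 of 19 higher), -0.06 for the mitochondrial genome (4 of 13), -0.05 for ribosomal proteins (13 of 73), -0.06 for shared projection neuron genes (5 of 16), -0.02 for clock genes (7 of 17), -0.03 for heat shock genes (3 of 10) and -0.05 for potassium channels (5 of 23). Without 12-F alone, the library with the highest background, the 7 medians ran from 0.03 (ribosomal) to 0.13 (vesicle release), each lower than with it by over 1.5 times. Vesicle release and heat shock genes had medians of 0.12 and 0.10 without 3-2, the mitochondrial genome one of 0.06 without 2-F, and shared projection neuron and ribosomal genes 0.31 and 0.26 without 4-4. The sign of these glial list medians turned when single libraries were left out. Mature oligodendrocyte markers had lower estimates in 11 of 12 (median -0.07); the median was -0.18 without 12-F (12 of 12 lower), -0.03 without 3-2 and 0.03 without 4-4, and in series F alone 11 of 12 were higher (0.42). Astrocyte markers had 8 of 10 higher (0.03), but 0 of 10 without 12-F (-0.07) and 0 of 10 without 3-6 and 12-F (-0.15). Microglia markers were split 6 and 6, with 2 of 12 higher without 12-F. The neurotrophic factor list was near 0 (-0.04), with Gfra1, a GDNF receptor, at -0.16 ± 0.09. The lists for chromatin regulators, GABA, glucocorticoid, interferon, matrix, neuropeptide, glial glutamate, opioid and endocannabinoid, choroid plexus, septal and oligodendrocyte precursor genes had medians between -0.09 and 0.07, and between -0.15 and 0.12 over single left-out libraries. Without 3-2, 3-6 and 12-F these medians lay between -0.10 and 0.01. Higher estimates were then held by 4 rather than 21 of 29 chromatin, 4 rather than 14 of 18 GABA and 3 rather than 10 of 12 opioid and endocannabinoid genes.

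The remaining genes were named for the lowest p among genes with a mean log2 CPM of at least 1, 10 in each direction. On the higher side, besides Egr2 and Junb, stood Ptk2b, the calcium-activated tyrosine kinase Pyk2, with 159, 228 and 434 CPM in Ext_Coc, against 118, 163 and 259 CPM in Ext_Sal (0.61 ± 0.22, SE). Lpl, lipoprotein lipase, had 20.4, 30.4 and 54.9 CPM in Ext_Coc, against 17.1, 22.7 and 29.1 CPM in Ext_Sal (0.47 ± 0.16). In both genes 3-2 was the highest library, and without it the estimates were 0.43 and 0.30. Syt10, a calcium sensor of vesicle release, had 25.3, 26.9 and 40.2 CPM in Ext_Coc, against 19.6, 23.9 and 26.5 CPM in Ext_Sal (0.31 ± 0.11, and 0.21 without 3-2). All 7 Ext_Coc libraries were above the Ext_Sal mean, as they were for Mitd1, which acts in cell abscission (0.33 ± 0.10), Urb2, which acts in ribosome biogenesis (0.23 ± 0.08), and Filip1, a filamin-interacting protein (0.18 ± 0.06). Urb2 was the most even of these over the series, with 0.27, 0.23 and 0.20 in series 3, 4 and F. Wnt1, a secreted signalling protein, and Lsm8, part of the ring that binds U6 RNA, had estimates of 0.48 ± 0.17 each.

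On the lower side, Trim34, of a family of interferon-inducible tripartite motif proteins, had 4.57, 5.32 and 6.85 CPM in Ext_Coc, against 5.79, 6.65 and 9.16 CPM in Ext_Sal (-0.36 ± 0.10, SE). All 7 Ext_Coc libraries were below the Ext_Sal mean. Spp1, the secreted protein osteopontin, had 1.56, 2.55 and 3.48 CPM in Ext_Coc, against 2.64, 3.42 and 4.33 CPM in Ext_Sal (-0.50 ± 0.18), and Cand2, a cullin-associated protein, 12.1, 13.3 and 15.8 CPM in Ext_Coc, against 13.8, 16.7 and 17.9 CPM in Ext_Sal (-0.25 ± 0.10). Mmp14, a membrane-bound matrix protease, had 4.90, 5.43 and 5.54 CPM in Ext_Coc, against 4.75, 6.77 and 18.4 CPM in Ext_Sal (-0.64 ± 0.24). Ranbp3l, a Ran-binding protein, had 10.2, 11.8 and 14.7 CPM in Ext_Coc, against 10.2, 13.1 and 101 CPM in Ext_Sal (-1.03 ± 0.39). The highest library of both genes was 3-6 of Ext_Sal, and without 3-2, 3-6 and 12-F the estimates were -0.23 and 0.08. Adgre5, an adhesion receptor of leukocytes (-0.30 ± 0.12), Cklf, a chemokine-like factor (-0.48 ± 0.17), Maml2, a coactivator of Notch (-0.18 ± 0.07), and Mansc4 (-0.30 ± 0.11) completed the list with Hbb-b1.

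The 2 groups did not overlap in 2 genes higher in Ext_Coc (0.00647%) and 3 lower (0.00971%), picked out after their values were seen. The only one with a gene name was Clic4, of the chloride intracellular channel family, with 22.6, 25.8 and 27.6 CPM in Ext_Coc, against 28.0, 29.0 and 41.3 CPM in Ext_Sal. Its log2 fold change was -0.24 ± 0.10 (SE), with library 3-6 of Ext_Sal highest, and -0.15 without 3-6 and 12-F. The other 4 carried LOC identifiers.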

How the data were processed

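Bulk RNA-seq was made from accumbens core and shell. The deposited values were raw counts per gene and FPKM; the submitters' processing notes name the build mRatBN7.2. The FPKM values deposited by the authors served only to recover gene lengths from count and FPKM together. Aligner, annotation and strand setting were not given in the sources used here, so overlapping, antisense and near-identical genes are uncertain. All columns of per-sample values were mapped to samples.

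Counts of the 42 Shell libraries were filtered (filterByExpr), scaled by TMM and fitted with edgeR 4.0.16 (R 4.3.3) by its quasi-likelihood F test, with group and series (3, 4, F) as terms and Benjamini-Hochberg adjustment over all 30911 genes. Levels are TMM-scaled CPM, and they are not compared between genes. DESeq2 1.42.0, another scaling, no filter, no series term, each series alone, a background covariate and left-out libraries were alternatives; 3 that leave out libraries with foreign markers were added after the data were seen. The procedure was tested on simulated data in which genes varied independently, with no background, series difference or foreign tissue. That test does not show how the procedure performs on libraries that hold these. Tables were made with Python 3.11.15. Promoters came from RefSeq (GRCr8), matched by symbol.

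The members and lists were chosen with earlier results of these data known. Named genes were the 10 of lowest p in each direction whose log2 CPM averaged 1 or more and that carry a gene symbol, up to 3 of lowest p per list, of which only some are printed, and a fixed set of reward-related genes; other genes named were list members. Depth is given in the results, and 7 libraries a group set the precision.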

Additional observations from a re-analysis of the deposited data

Results flagged for a closer look

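Of 200 sets of 7 libraries examined (named genes, lists and library measures in each group), 15 held 1 library whose gap to its nearest neighbour exceeded Dixon's critical share of the whole range; chance gives about 1 in 20 such sets. Ext_Coc library 3-2 was that library in most of the Ext_Coc sets, standing high for Cck (0.922 of the range), Slc17a7 (0.892), Cnr1 (0.782), Neurod6 (0.758), Syt10 (0.713) and Nr4a3 (0.653), high for the cortical glutamatergic list (0.779) and low for the endothelial list (0.603). Library 3-3 of Ext_Coc stood low for Mmp14 (0.675), library 4-3 high for total counts (0.639) and library 2-F high for the percentage of mitochondrial counts (0.597). In Ext_Sal, library 3-6 stood high for Clic4 (0.811). Library 12-F of Ext_Sal stood high for the background share (0.61) and low for the lists of other neuropeptides (0.677) and astrocyte markers (0.606).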

How the results depend on the processing

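The count of genes past the adjusted threshold was 0 under every alternative run, DESeq2 included, and for the differences of drug effects too. Leaving out 1 library at a time, genes at an unadjusted p under 0.05 ran from 221 without Ext_Sal 3-6 to 1291 without Ext_Sal 4-4 (235 without Ext_Coc 3-2); they were 1506 with the background covariate, 2201 in series 3 alone, 868 in series 4 alone and 31 in series F alone. Of 60 genes named with values, 38 kept their sign in each of 13 alternatives that were not single left-out libraries.

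Signs turned as follows (log2 fold changes); the cause was not tested. In series 4 alone: Ranbp3l 0.060, Drd1 -0.14, Drd2 -0.18, Pdyn -0.0072, Oprk1 -0.21, Cnr1 -0.26, Gria1 -0.21, Gria2 -0.11, Grm5 -0.11, Slc1a2 -0.30, Camk2a -0.071, Plk2 -0.13, Tac1 -0.12, Slc17a7 -0.15 and Col1a2 0.069. In series F alone: Hbb-b1 0.046, Bdnf -0.32, Oprm1 -0.087, Slc17a7 -0.54 and Neurod6 -0.50. Without series F: Oprk1 -0.0002, Gria1 -0.022 and Slc1a2 -0.065. Without 3-6 and 12-F: Drd2 -0.018, Oprk1 -0.068, Gria1 -0.064, Grm5 -0.039, Slc1a2 -0.082, Slc7a11 0.058, Col3a1 0.12 and Col1a2 0.10. Without 3-2, 3-6 and 12-F: Ranbp3l 0.081, Drd2 -0.035, Oprk1 -0.066, Cnr1 -0.090, Gria1 -0.12, Gria2 -0.048, Grm5 -0.069, Slc1a2 -0.14, Slc7a11 0.071, Col3a1 0.26 and Col1a2 0.19. Without 3-2 and with the background covariate: Cnr1 -0.0076 and Slc17a7 -0.10. Atf3, near 0 in the report, was at 0.13 without series F, 0.23 in series 4 alone, 0.056 with the background covariate (0.056 also without 3-2), 0.083 without 3-6 and 12-F and 0.12 without 3-2, 3-6 and 12-F. Leaving out 1 library at a time, Atf3 ran from -0.099 to 0.055, Bdnf ran from -0.039 to 0.28, Oprk1 from -0.022 to 0.13, Slc1a2 from -0.026 to 0.19 and Slc17a7 from -0.21 to 2.00.

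Core and shell libraries share numbers. The main fit for shell minus core did not take these numbers as pairs. The correlations of 10 numbered pairs ran from -0.42 to 0.59. They were computed over all genes with the background level left in, and cannot show whether a shared number marks the same animal. The fit with the replicate block for shell minus core called 0 genes, as did the fit without it. Each series holds 2 or 3 libraries a group, so within-series values have few samples.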
